A study of Mus musculus with 8 samples.

Results

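PML bodies are small nuclear structures, and 8 genes of the PML body and the SUMO pathway were followed here in whole mouse pancreas. The genes were chosen by name as Pml, Sp100, Sumo2, Sumo3, Pias1, Senp1, Senp6 and Hipk1. They are 8 of the 11789 genes listed, and all 8 were among the 10468 genes tested. Expression was measured by strand-specific sequencing of total RNA from the pancreas of 8 mice aged 6 weeks, with 1 library per mouse. By the labels, 4 libraries are wild type (WT) and 4 belong to the group Daxxfl/flPdx1-CreTg (DC), called Daxx deleted here. These mice carry floxed Daxx alleles and a Cre transgene under the Pdx1 promoter, which is active in the epithelial progenitors of the pancreas but not in vessels, stroma or immune cells. No group with the Cre transgene alone or the floxed alleles alone was analysed here, so the effects of Daxx loss, Cre and the floxed alleles cannot be told apart. The series' design text gives females and males in equal number in each genotype, and no label says which library is of which sex.

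SUMO proteins are small relatives of ubiquitin that are joined to lysines of other proteins by an E1, E2 and E3 enzyme chain and removed by SENP proteases. PML is itself modified by SUMO and builds the shell of the body, which gathers proteins that bind SUMO. Daxx is one of these proteins: it is a histone H3.3 chaperone that enters PML bodies through SUMO-binding motifs, and HIPK kinases bind and phosphorylate proteins there. Pml and Sp100 are also known as interferon-induced genes. RNA levels do not measure SUMO conjugation or the number of PML bodies.

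Sumo2 and Sumo3 encode nearly the same mature protein. The larger 3′ part of their coding sequences is shown because it carries the likeness between the pair. The stretches run from base 121 of 288 in Sumo2 and base 118 of 333 in Sumo3 to the stop codon (GENCODE M21, GRCm38, 5′ to 3′), and capitals mark bases that differ between the pair or have no partner in the alignment.
Sumo2: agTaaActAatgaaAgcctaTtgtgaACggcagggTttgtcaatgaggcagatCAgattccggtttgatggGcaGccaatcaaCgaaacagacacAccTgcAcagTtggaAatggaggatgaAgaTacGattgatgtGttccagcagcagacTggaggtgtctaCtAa
Sumo3: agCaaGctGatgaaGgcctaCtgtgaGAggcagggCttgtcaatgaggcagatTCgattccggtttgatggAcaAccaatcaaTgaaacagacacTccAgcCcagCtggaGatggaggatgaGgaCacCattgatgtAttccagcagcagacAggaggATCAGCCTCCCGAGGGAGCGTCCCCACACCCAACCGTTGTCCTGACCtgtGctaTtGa
Over the whole coding sequences 236 of 285 aligned bases were identical (82.8%), and the longest stretch shared without a difference was 17 bases. All but the first of the unpaired capitals near the 3′ end of Sumo3 belong to the longer tail that SENP proteases cut from the precursor. Sumo2 has 11 annotated pseudogenes with at least 95% identity over at least 100 bases of its coding sequence. The pseudogene Gm10241 on chromosome 16 was identical over 286 bases. Searched over whole principal transcripts, such stretches covered 31.1% of the Sumo2 transcript (327 of 1051 bases), 14.0% of that of Sp100 and 13.2% of that of Sumo3, and none of that of Pml, Pias1, Senp1, Senp6 or Hipk1. The Sp100 stretches matched 4 pseudogenes on chromosome 1, and the Sumo3 stretch matched Gm49325, a protein-coding gene on the same strand that shares 346 exon bases with Sumo3. None of these copies is listed in the table, and the treatment of reads with several matches is not stated in the labels or notes used here. Levels of Sumo2, Sp100 and Sumo3 are uncertain to that extent. Hipk1 shares 729 exon bases with the antisense gene Gm15886 and Senp1 shares 462 with the antisense gene Gm26513, and the notes do not say whether counting used the strand.

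The libraries held 7705789 to 10517508 reads over the listed genes. The 6 acinar marker genes took 34.7% to 39.7% of the normalized counts of a library, and all 6 ductal and all 7 islet markers were listed. Of 6 lymphocyte and pan-leukocyte markers only Ptprc was listed, at 6.20 to 36.1 normalized counts in wild type and 10.5 to 49.1 in Daxx-deleted libraries. The 4 Y-linked genes checked summed to 0 to 1.67 normalized counts in 2 libraries of each genotype and to 174 to 325 in the others. Libraries of the same genotype differed in how their values leaned with the GC content of transcripts. The Spearman correlation across genes between a library's deviation from the gene mean and transcript GC ran from -0.45 in wild-type replicate 4 to 0.43 in wild-type replicate 2, and from -0.33 in Daxx-deleted replicate 2 to 0.46 in Daxx-deleted replicate 3. Values below are the authors' normalized read counts, listed for replicates 1 to 4 of each genotype, and means carry the SD over n = 4 libraries. Log2 fold changes are Daxx deleted minus wild type on the log2(value + 1) scale.

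Daxx, the targeted gene, stood at 39.7, 58.7, 46.7 and 45.2 in wild-type mice and at 26.8, 23.3, 29.2 and 32.5 in Daxx-deleted mice, without overlap. Its log2 fold change was -0.74 ± 0.20 (SE), with an exact permutation p of 0.0286, the smallest that 4 libraries against 4 allow, and a limma adjusted p of 0.9997 over all tested genes. Which exons of Daxx are floxed is not stated in the labels, so reads outside the deleted part may be counted. None of the 8 PML body and SUMO genes passed the test between genotypes, at an adjusted p under 0.05 in limma, where 0.0% of all tested genes passed. By edgeR 0.0% and by DESeq2 0.00955% of all tested genes passed, and none of the 8 did. None had an unadjusted p under 0.05 in limma, edgeR or DESeq2, where 2.88%, 2.86% and 2.09% of all tested genes did. In all 8 genes the values of the genotypes overlapped. Of all tested genes 1.87% had no overlap, 0.831% with higher and 1.04% with lower values in Daxx-deleted mice. At those shares 8 genes would most often hold none.

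**Figure D1:**
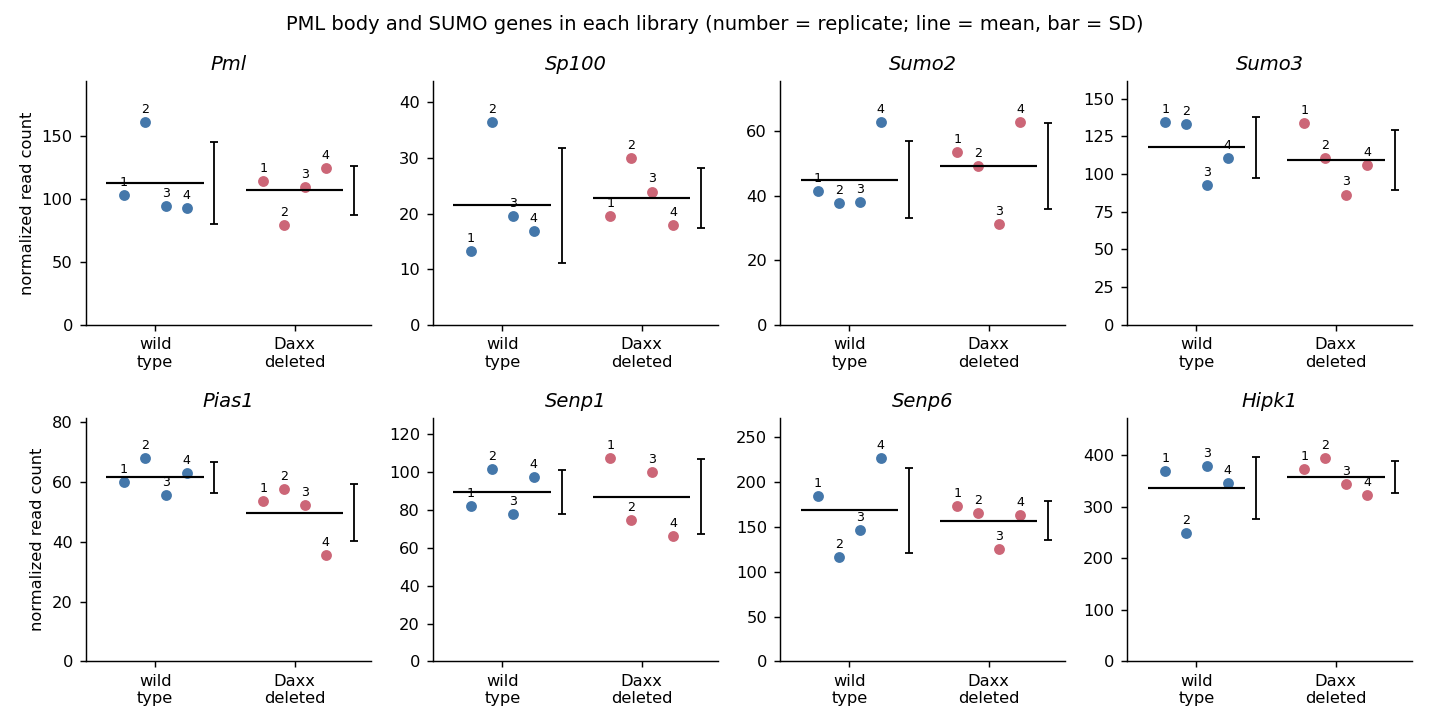
Normalized read counts of the 8 genes (y axis, each from 0) in the 4 wild-type (blue) and 4 Daxx-deleted (red) libraries, with the replicate number at each point, the mean as a line and the SD as a bar. The genotypes overlap in every panel, and wild-type replicate 2 stands at 162 for Pml and 249 for Hipk1.

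Pml (ENSMUSG00000036986.16, chromosome 9, 58218076 to 58249786, minus strand, GRCm38) encodes the scaffold of the body. It stood at 103, 162, 94.5 and 93.0 normalized counts in wild-type mice and at 115, 79.1, 109 and 125 in Daxx-deleted mice. The highest and the lowest library were of different genotypes, wild-type replicate 2 and Daxx-deleted replicate 2, and the other 6 lay between 93.0 and 125. The means were 113 ± 32.7 and 107 ± 19.7, giving a log2 fold change of -0.06 ± 0.19 (SE; 95% interval -0.47 to 0.36), or 0.720-fold to 1.28-fold (exact permutation p = 0.8286). Without wild-type replicate 2 the log2 fold change was 0.12. In that library 124 reads gave a counting interval of 135 to 193 normalized counts (exact Poisson, 95%). It lay above the values of all the other libraries, whose own counting error is left out of that comparison.

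Sp100 (ENSMUSG00000026222.16, chromosome 1, 85649988 to 85709998, plus strand), a body protein that binds SUMO and heterochromatin protein, had the fewest reads of the 8 genes. It stood at 13.2, 36.5, 19.5 and 16.8 in wild-type mice and at 19.6, 30.0, 24.0 and 17.8 in Daxx-deleted mice. Wild-type replicate 2 was again the highest library, and wild-type replicate 1 was the lowest. The means were 21.5 ± 10.3 and 22.9 ± 5.41, giving a log2 fold change of 0.16 ± 0.31 (SE; 95% interval -0.51 to 0.82), with an exact permutation p of 0.629. The values rest on 15 to 36 reads per library, and the 15 reads of wild-type replicate 1 alone allow 7.40 to 21.8 normalized counts. The interval of the ratio ran from 0.702-fold to 1.77-fold, which takes in both the spread between mice and counting error, and the part of each was not tested. Without wild-type replicate 1 the log2 fold change was -0.03, and without wild-type replicate 2 it was 0.44.

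Sumo2 (ENSMUSG00000020738.16, chromosome 11, 115523102 to 115536276, minus strand) stood at 41.4, 37.8, 37.98 and 62.9 normalized counts in wild-type mice and at 53.7, 49.1, 31.2 and 63.0 in Daxx-deleted mice. The highest libraries of the 2 genotypes, wild-type replicate 4 and Daxx-deleted replicate 4, were nearly equal, and in wild type that library lay apart from the other 3. The means were 45.02 ± 12.01 and 49.3 ± 13.3, giving a log2 fold change of 0.12 ± 0.24 (SE; 95% interval -0.39 to 0.62), with an exact permutation p of 0.657. Without Daxx-deleted replicate 4 it was -0.01. Sumo3 (ENSMUSG00000020265.16, chromosome 10, 77606097 to 77618331, plus strand) stood at 135, 133, 92.5 and 111 in wild-type mice and at 134, 111, 86.4 and 106 in Daxx-deleted mice. Its highest 3 libraries held both genotypes, and its means were 118 ± 20.1 and 109 ± 19.6. The log2 fold change of Sumo3 was -0.11 ± 0.17 (SE; 95% interval -0.47 to 0.25), with an exact permutation p of 0.514. The ratio of Sumo3 to Sumo2 normalized counts was 2.74 ± 0.800 in wild type, from 1.76 to 3.52, and 2.30 ± 0.462 in Daxx-deleted mice, from 1.68 to 2.77. Per kilobase of merged exons the ratio was 1.30 ± 0.380 and 1.09 ± 0.219, and per kilobase of the principal transcript 1.10 ± 0.320 and 0.920 ± 0.185, and on either length both genotypes held libraries above and below a ratio of 1.

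Pias1 (ENSMUSG00000032405.10, chromosome 9, 62878368 to 62987924, minus strand), a SUMO E3 ligase, had the largest genotype difference of the 8. It stood at 59.9, 67.8, 55.5 and 62.9 in wild-type mice and at 53.7, 57.5, 52.1 and 35.7 in Daxx-deleted mice. Only Daxx-deleted replicate 2 reached into the wild-type range, above wild-type replicate 3, and Daxx-deleted replicate 4 was the lowest library. The means were 61.5 ± 5.17 and 49.7 ± 9.63, a ratio of 0.801 with a 95% interval of 0.610 to 1.05, and a log2 fold change of -0.32 ± 0.18 (SE). The exact permutation p was 0.0571, and the limma adjusted p was 0.9997. Of all tested genes 86.7% had a smaller log2 fold change in size. Without Daxx-deleted replicate 4 the log2 fold change was -0.17.

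Senp1 (ENSMUSG00000033075.17, chromosome 15, 98038744 to 98093744, minus strand), a protease that matures SUMO precursors and removes SUMO from targets, stood at 82.0, 102, 77.9 and 97.4 in wild-type mice and at 107, 75.0, 99.98 and 66.1 in Daxx-deleted mice. Both ends of its range were Daxx-deleted libraries. The means were 89.7 ± 11.6 and 87.1 ± 19.7, giving a log2 fold change of -0.06 ± 0.18 (SE; 95% interval -0.44 to 0.32), with an exact permutation p of 0.743. Senp6 (ENSMUSG00000034252.14, chromosome 9, 80066903 to 80144953, plus strand), a protease that trims chains of SUMO2 and SUMO3, stood at 184, 116, 147 and 227 in wild-type mice and at 173, 166, 125 and 164 in Daxx-deleted mice. Here both ends of the range, 116 and 227, were wild-type libraries, which spread by an SD of 47.7 around 168 against 21.7 around 157 in Daxx-deleted mice. Its log2 fold change was -0.07 ± 0.19 (SE; 95% interval -0.47 to 0.33), with an exact permutation p of 0.8286.

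Hipk1 (ENSMUSG00000008730.17, chromosome 3, 103739815 to 103791563, minus strand), a nuclear kinase that phosphorylates Daxx and p53, had the most reads of the 8, 191 to 473 per library. It stood at 370, 249, 380 and 347 in wild-type mice and at 373, 394, 345 and 323 in Daxx-deleted mice. Wild-type replicate 2 was the lowest library, and the other 7 lay between 323 and 394. The means were 337 ± 59.9 and 359 ± 31.0, giving a log2 fold change of 0.11 ± 0.14 (SE; 95% interval -0.19 to 0.40), with an exact permutation p of 0.657. Hipk1 had the narrowest interval of the 8 genes, 0.876-fold to 1.32-fold. Without wild-type replicate 2 its log2 fold change was -0.03.

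Side by side, 3 of the 8 genes had a log2 fold change above 0 and 5 below. The median was -0.06 and the median size was 0.11, where over all tested genes these were -0.01 and 0.12. With equal library totals in place of the deposited scaling 7 of 8 lay above 0, but the median of all genes then moved to 0.11, and relative to it 3 of 8 lay above, as in the deposited scaling. Leaving out 1 library turned the direction of 6 of the 8, all but Sumo3 and Pias1, and made no call among them. Sumo3 went from -0.11 to -0.000338 without Daxx-deleted replicate 3 and to -0.22 without wild-type replicate 3. In bulk tissue fewer cells of a type and less RNA per cell cannot be told apart, and RNA of cells without Cre is part of each value.

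**Figure D2:**
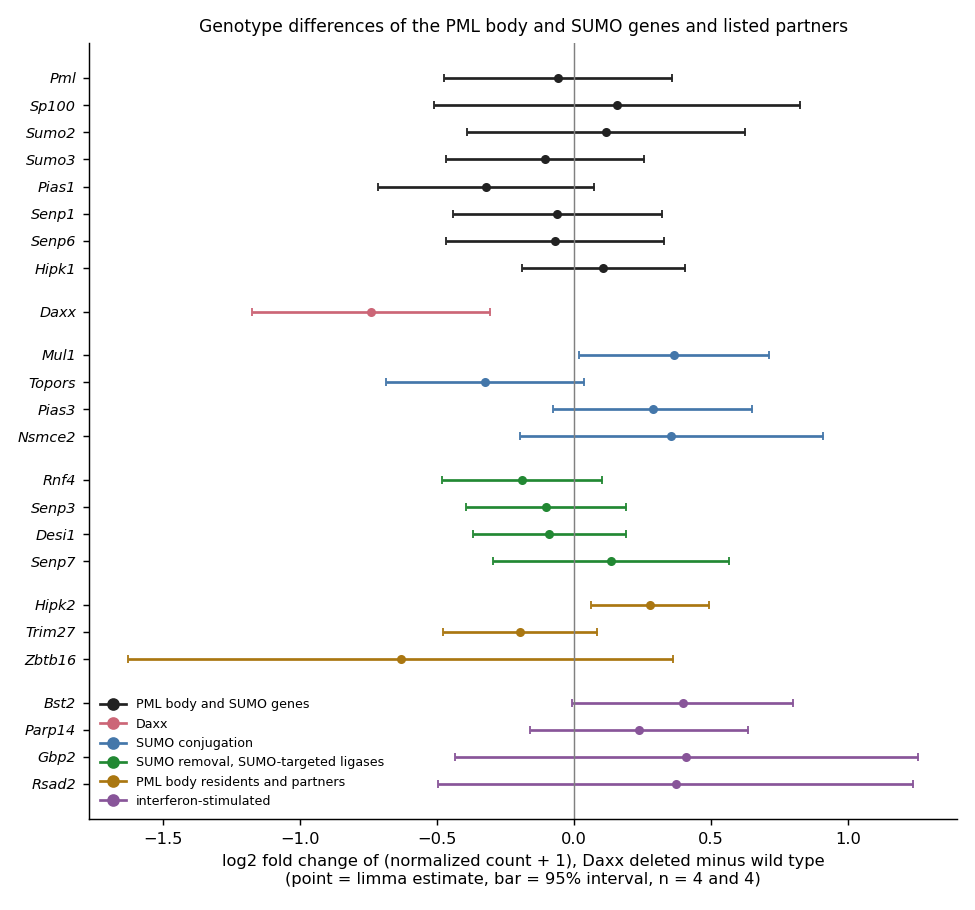
Log2 fold changes (x axis, Daxx deleted minus wild type, with 95% intervals from limma, n = 4 and 4) of the 8 PML body and SUMO genes, of Daxx, and of the genes with the smallest unadjusted p in 4 lists of partners. The intervals of all 8 genes cross 0, and those of Daxx, Mul1 and Hipk2 do not.

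Levels of different genes were compared per kilobase of merged annotated exons, as the mean over all 8 libraries with SD. In this order Hipk1 had 31.8 ± 4.19 normalized reads per kilobase, Sumo3 31.03 ± 5.17, Sumo2 27.2 ± 6.89, Senp6 23.2 ± 4.97, Pml 19.8 ± 4.53, Pias1 8.14 ± 1.40, Senp1 7.45 ± 1.27 and Sp100 2.94 ± 1.01. Neighbours from Hipk1 down to Pml lay within 1 SD of each other, as did Pias1 and Senp1. The steps from Pml to Pias1 and from Senp1 to Sp100 were wider than the SD of either neighbour, and the ranges over the 8 libraries did not meet there: Pml went down to 14.2 and Pias1 up to 9.93, and Senp1 went down to 5.57 and Sp100 up to 4.83. Daxx stood at 15.1 ± 2.54 in wild-type and 8.88 ± 1.23 in Daxx-deleted libraries. With the length of the principal transcript Sumo2 came first with 44.9, ahead of Hipk1 with 43.8 and Sumo3 with 43.2, Senp1 passed Pias1, and Sp100 stayed last with 8.19 ± 2.83. On that length Sp100 was no longer set apart: it reached 13.5, while Pias1, with a mean of 9.998, ran from 6.42 to 12.2 and Senp1 from 10.06 to 16.3.

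**Figure D3:**
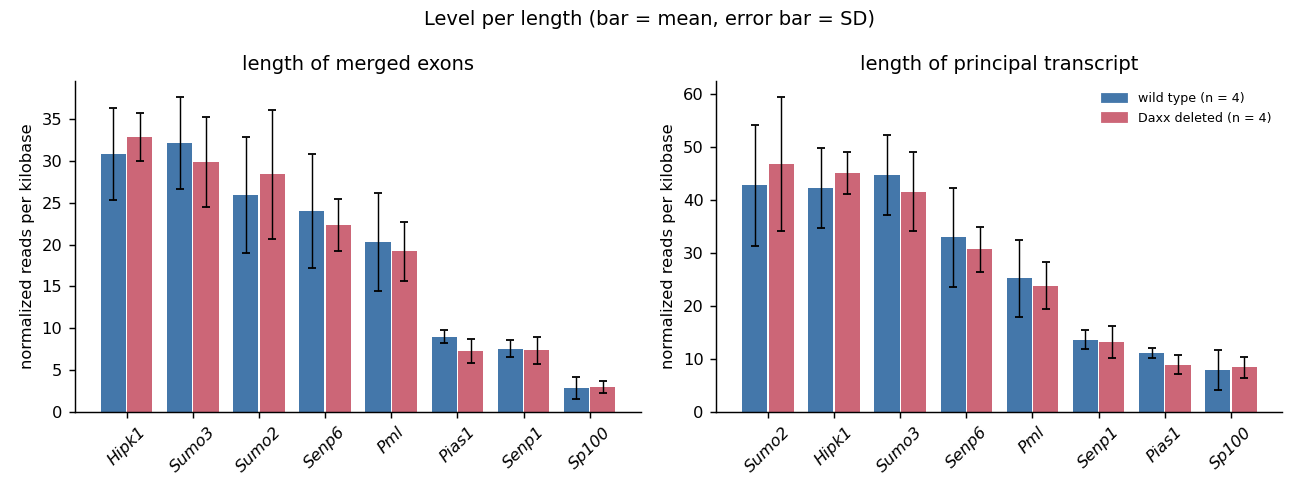
Mean normalized reads per kilobase (y axis, from 0, error bars SD, n = 4) of the 8 genes in wild-type (blue) and Daxx-deleted (red) pancreas, with merged exon length on the left and principal transcript length on the right. Sp100 is lowest on either length, and Hipk1, Sumo2 and Sumo3 are the highest 3.

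How the genes varied together was examined over the 8 libraries for all 28 pairs on the log2 scale, and with the deposited scaling no pair passed after Benjamini-Hochberg adjustment over the 28. Pearson's r ran from -0.89 to 0.76, with 13 pairs above 0, 15 below and a median of -0.03. With equal library totals it ran from -0.56 to 0.81, with 20 pairs above 0, 8 below and a median of 0.31. With the deposited scaling only 2 pairs had an unadjusted exact permutation p under 0.05 for r. Pml and Hipk1 lay opposite to each other, with r = -0.89 (exact permutation p = 0.00402, adjusted p = 0.113) and Spearman's rho = -0.76 (exact permutation p = 0.0368, adjusted p = 0.775). Without the 2 libraries farthest from the median of Pml, replicate 2 of each genotype, r was -0.53, so the relation rests in part on them. With equal library totals r was -0.56 (exact permutation p = 0.145, adjusted p = 0.687). Sumo2 and Senp6 lay together, with r = 0.76 (exact permutation p = 0.0299, adjusted p = 0.418) and rho = 0.67 (exact permutation p = 0.0831, adjusted p = 0.775). Without Daxx-deleted replicates 3 and 4, the farthest from the median of Sumo2, r was 0.81. With equal library totals this pair had r = 0.81 (exact permutation p = 0.0245, adjusted p = 0.544) and rho = 0.95 (exact permutation p = 0.00114, adjusted p = 0.0319), and the rho passed the adjustment there. Senp6 and Hipk1 also had an unadjusted p under 0.05 there, with r = 0.72 (exact permutation p = 0.0399, adjusted p = 0.544). Subtracting each genotype's mean gave r = -0.90 for Pml and Hipk1 and 0.79 for Sumo2 and Senp6. Pml and Sp100, of which wild-type replicate 2 was the highest library, had r = 0.31 (exact permutation p = 0.463, adjusted p = 0.766) and rho = 0.24 (exact permutation p = 0.582, adjusted p = 0.915), with r = 0.20 without replicate 2 of each genotype.

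**Figure D4:**
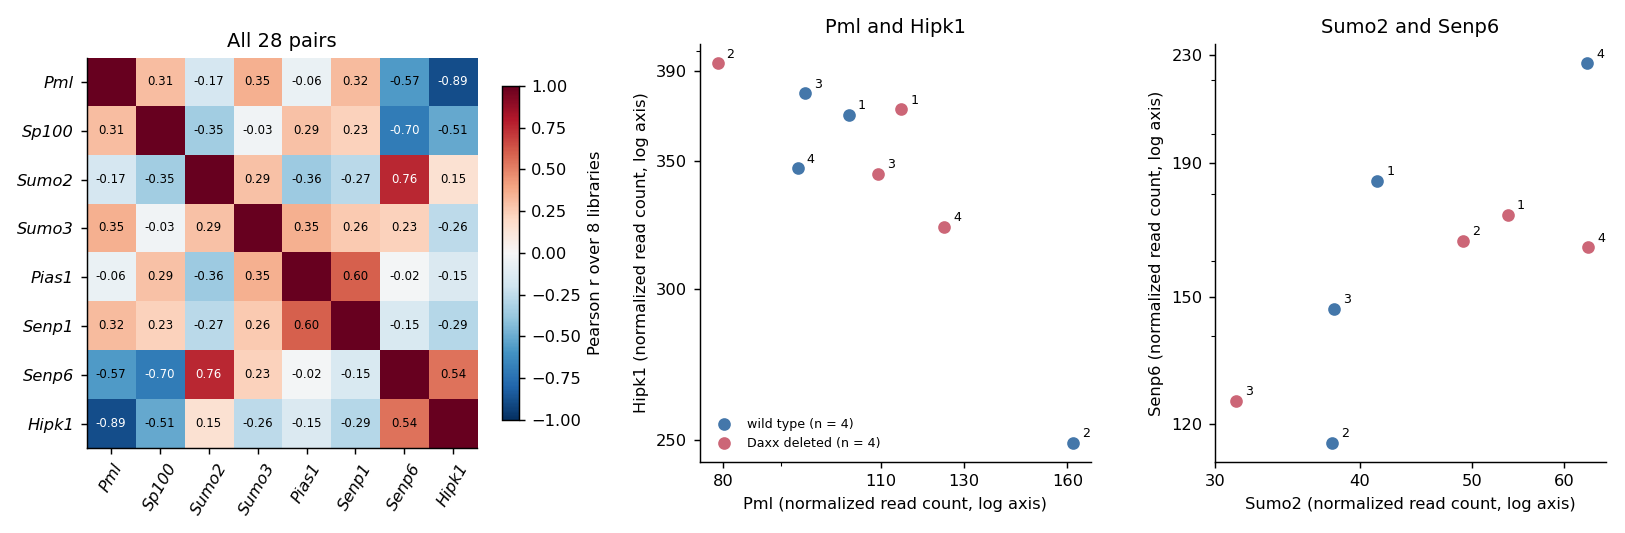
Left, Pearson's r over 8 libraries for all pairs of the 8 genes; middle and right, normalized read counts on log axes for Pml against Hipk1 and Sumo2 against Senp6, with wild-type libraries in blue, Daxx-deleted in red and replicate numbers beside the points. Pml and Hipk1 run opposite (r = -0.89), with wild-type replicate 2 at one end, and Sumo2 and Senp6 run together (r = 0.76).

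Senp6 moved with the GC lean of the libraries described above. That lean is built from the values of all genes, Senp6 among them. How many other genes follow it as closely was not counted. Over the 8 libraries r between Senp6 and the GC correlation was -0.92 (exact permutation p = 0.000620, adjusted over the 8 genes 0.00496) and rho was -0.88 (exact permutation p = 0.00724, adjusted p = 0.0579). Without wild-type replicate 2 and Daxx-deleted replicate 3, the libraries farthest from the median GC correlation, r was -0.78. The longest Senp6 transcript has a GC content of 44.8%, and that of Pml, the highest of the 8 genes, has 55.3%. Pml was the highest of the 8 genes in both GC content and r. The others did not follow in strict order, and the relation between GC content and r was not tested. Pias1, the lowest at 42.2%, had r = -0.19 (exact permutation p = 0.725). Sumo2, at 43.8%, had r = -0.63 (exact permutation p = 0.0960). Pml had r = 0.67 with the GC correlation (exact permutation p = 0.0617, adjusted p = 0.192) and rho = 0.74 (exact permutation p = 0.0458, adjusted p = 0.183), with r = 0.52 without the same 2 libraries. The other 6 genes had an adjusted exact permutation p of 0.192 or more for r and 0.302 or more for rho. After the GC trend of each library was removed, a step added after seeing the data, no pair passed the adjustment over the 28. Pml and Hipk1 then had r = -0.84 (exact permutation p = 0.00873, adjusted p = 0.244). Sumo2 and Senp6 had r = 0.61 (exact permutation p = 0.109, adjusted p = 0.595). Sp100 and Senp6 had r = -0.80 (exact permutation p = 0.0184, adjusted p = 0.258) and rho = -0.88 (exact permutation p = 0.00724, adjusted p = 0.203). The genotype difference of Senp6 was then -0.04 and that of Pml -0.07 on the log2 scale, close to the values with the trend left in.

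**Figure D5:**
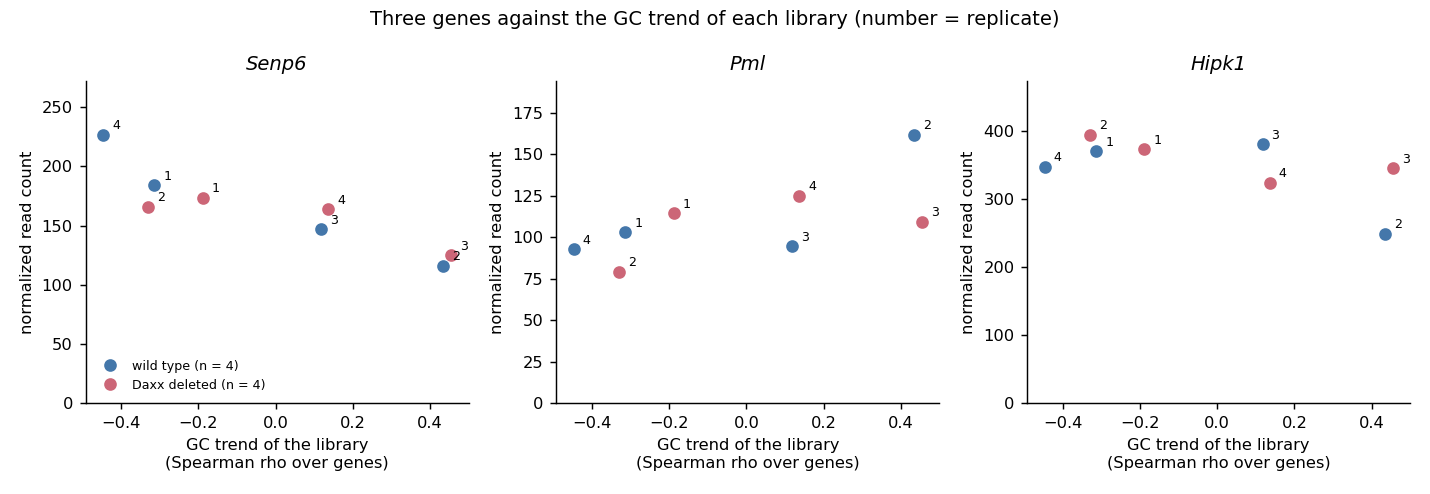
Normalized read counts (y axis, from 0) of Senp6, Pml and Hipk1 against the GC lean of each library (x axis, Spearman's rho over 10462 genes between deviation and transcript GC content), with wild type in blue and Daxx deleted in red. Senp6 is lowest in wild-type replicate 2 (116) and Daxx-deleted replicate 3 (125), the 2 libraries with the highest rho.

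The genes whose pattern over the 8 libraries was most like that of each member are given as a description, with Pearson's r of log2 values. They were Cep57l1 (0.96) and Tmem63a (0.96) for Pml, Pde7b (0.97) and Ccnd3 (0.97) for Sp100, and Tpm1 (0.97) and Rpl17 (0.97) for Sumo2. For Sumo3 they were Zfp780b (0.96) and Socs3 (0.94), for Pias1 Tmem159 (0.97) and Ccdc71l (0.96), and for Senp1 Arl16 (0.92) and Ngly1 (0.91). For Senp6 they were Hspa4 (0.98) and Wdr77 (0.97), and for Hipk1 Slf1 (0.95) and Pde7a (0.94). No other PML body or SUMO gene of the lists was among these 16. The 3 lists hold 43 of the 10468 tested genes, so 16 genes would seldom hold any, and the absence says nothing about the lists. Senp6 had 129 genes with r of at least 0.90, more than the 5 of Senp1, 6 of Sp100, 7 of Sumo3, 22 of Pias1, 32 of Sumo2, 35 of Hipk1 and 43 of Pml.

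The rest of the SUMO machinery gave no call either. Of 14 genes of SUMO conjugation, all tested, 9 lay above 0 and 5 below, with a median log2 fold change of 0.05. Mul1, a mitochondrial ubiquitin and SUMO ligase, stood at 71.4, 73.0, 74.0 and 54.0 in wild-type mice and at 79.5, 78.3, 97.9 and 95.5 in Daxx-deleted mice. Its 4 Daxx-deleted libraries lay above its 4 wild-type libraries, with a log2 fold change of 0.37 ± 0.16 (SE), an unadjusted limma p of 0.0400 and an adjusted limma p of 0.9997. Topors, a ligase for ubiquitin and SUMO, had a wild-type mean of 82.4 ± 13.4 and a Daxx-deleted mean of 65.6 ± 10.1, and Daxx-deleted replicate 1 at 80.5 lay inside the wild-type range. Pias3, a relative of Pias1, had means of 51.5 ± 5.53 and 63.1 ± 7.84, with a log2 fold change of 0.29 ± 0.17 (SE), opposite in sign to Pias1; the difference between the 2 genes was not tested. Nsmce2, the SUMO ligase of the SMC5/6 complex, had 19.6 ± 3.33 and 25.6 ± 6.80.

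Of 9 genes of SUMO removal and SUMO-targeted ubiquitin ligation, all tested, 3 lay above 0 and 6 below, with a median log2 fold change of -0.07. None had an unadjusted limma p under 0.05, beside 2.88% of all tested genes, and none was without overlap, beside 1.87%. At those shares 9 genes would most often hold none. Rnf4, a ubiquitin ligase that recognises SUMO chains on PML, had means of 209 ± 17.4 and 184 ± 27.5, a log2 fold change of -0.19 ± 0.14 (SE). The proteases Senp3, Desi1 and Senp7 had log2 fold changes of -0.10 ± 0.14, -0.09 ± 0.13 and 0.13 ± 0.20 (SE).

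Of 24 residents and partners of PML bodies, 22 were listed and 20 tested, with 12 above 0, 8 below and a median of 0.02. Blm and Chek2 were under the minimum mean, and Sp110 and Sp140, relatives of Sp100, were not analysed here. Hipk2, a kinase related to Hipk1, stood at 553, 533, 515 and 575 in wild-type mice and at 609, 646, 704 and 679 in Daxx-deleted mice, without overlap. Its log2 fold change was 0.28 ± 0.10 (SE), with an unadjusted limma p of 0.0148, an adjusted limma p of 0.9997 and an exact permutation p of 0.0286. Hipk1 had 0.11 ± 0.14 in the same direction with overlap, and the difference between the kinases was not tested. Trim27, a ubiquitin and SUMO ligase, had means of 176 ± 18.4 and 153 ± 15.1. Zbtb16, which encodes the repressor PLZF, ranged from 55.6 to 600 over the 8 libraries, with a log2 fold change of -0.63 ± 0.47 (SE). It was -0.0290 without Daxx-deleted replicate 4, the library at 55.6, -0.31 without wild-type replicate 3, the library at 600, and -0.40 with edgeR. Over the 3 lists together, 24 of 43 tested genes lay above 0 and 19 below, with a median of 0.01. Only Mul1 and Hipk2 (higher) and Daxx (lower) were without overlap, 3 of 43 beside 1.87% of all tested genes. Daxx is the targeted gene, so its separation follows from the design and says nothing about the lists.

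Because Pml and Sp100 are interferon-induced, other interferon-stimulated genes were counted. Of 26, 19 were listed and 15 tested, with 10 above 0, 5 below, none called and a median of 0.09. Over all tested genes 5033 of 10468 lay above 0, with a median of -0.01. Isg15, Ifit1, Ifit3, Usp18, Mx1, Mx2 and Oas1a were not analysed here. Irf7, Ifit2, Gbp3 and Psmb9 were under the minimum mean. Bst2, which encodes tetherin, stood at 47.6, 48.3, 54.5 and 56.7 in wild-type mice and at 48.5, 74.1, 85.4 and 70.3 in Daxx-deleted mice. Only Daxx-deleted replicate 1 lay inside the wild-type range. Bst2 had a log2 fold change of 0.40 ± 0.19 (SE) and a limma adjusted p of 0.9997. Parp14, Gbp2 and Rsad2 had 0.24 ± 0.19, 0.41 ± 0.40 and 0.37 ± 0.41 (SE). Rsad2 stood at 32.5 in Daxx-deleted replicate 4 and at 8.26 to 17.5 in the other 7 libraries, and without that library its log2 fold change was 0.00256. That of Gbp2 was 0.13 without wild-type replicate 2 and 0.69 without wild-type replicate 1. The 19 listed genes summed to 635 to 698 normalized counts in wild type and 655 to 783 in Daxx-deleted libraries. In RefSeq promoter windows of GRCm38.p6, from 250 bases before to 50 after each start and searched on both strands, the core of the interferon-stimulated response element was in 3.44% of 32851 windows and TTCNNNGAA, the core of the interferon-gamma activated site, in 8.30%, and neither was in a window of the 8 genes. GGGCGG, the GC box, was in 35.7% of all windows and in 8 of the 13 windows of the 8 genes. Those 8 windows belong to Pml, Sp100, Sumo2, Sumo3, Pias1 and Senp6, and 1 of the 3 Sumo3 windows lacked it. Windows of the same gene can overlap, and those of Sp100 hold the same GC box. The windows are therefore not separate promoters, and a difference from the share of all windows was not tested.

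Markers of other cells overlapped between genotypes. The 6 listed of 7 myeloid markers summed to 331 to 481 normalized counts in wild type and 241 to 594 in Daxx-deleted libraries, with Itgam not analysed here. The 7 islet markers summed to 2059 to 7643 and 1633 to 7397. The 3 adipocyte markers summed to 58.4 to 132 and 59.8 to 242, with Adipoq at 0 in 1 library. Their part in the values of the 8 genes was not tested.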

How the data were processed

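Total RNA from whole pancreas of 8 mice was sequenced as stranded libraries, per the labels' protocols. Reads were aligned to GRCm38 with STAR 2.6.0b and DESeq2 was used, per the submitters' processing notes. No source used here names the read counter or the gene filter. The deposited signal values are read counts divided by a size factor per library: every value (100.0%) came out as a whole number of reads within 0.001, and recovered totals were 7705789 to 10517508 reads. Counting intervals are exact Poisson and cover counting error only.

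From these values, genes with a mean of at least 10 were tested with limma 3.58.1 (limma-trend, two-sided, R 4.3.3) on log2(value + 1), with genotype as the only term and Benjamini-Hochberg adjustment over 10468 genes; a call is an adjusted p under 0.05. A pseudocount understates changes of low genes. Single genes were also tested by exact two-sided permutation. The recovered reads were tested with edgeR 4.0.16 (0 calls) and with DESeq2 1.42.0 (1 call) as alternatives. Others were pseudocounts of 0.5 and 8, TMM scaling, equal totals, no filter or a minimum mean of 50, robust moderation, a Y-linked covariate, an adjusted p under 0.1, leaving out each library, and, chosen after seeing the data, removal of a GC trend and the principal transcript length. The limma script was tested on simulated data. Gene models and lengths were from GENCODE M21, with GC and length for 99.9% of genes; similar copies were searched with BLAST+ 2.17.0.

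The 8 genes and all lists were chosen with earlier results of these data known. Named genes are the 8, Daxx, up to 4 tested genes per list with the smallest unadjusted p, and the 2 genes most correlated with each of the 8. No label says how mice were paired or housed. The p-values between genotypes take the libraries as independent and set the difference against the spread between libraries of the same genotype.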

Additional observations from a re-analysis of the deposited data

Results flagged for a closer look

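Among 48 groups of 4 libraries, from 24 genes, 5 held a library far from the other 3, where chance flags about 1 in 20, or 2.4 groups. Pml was at 161.7 normalized counts in wild-type replicate 2, and the other wild-type libraries were at 93.0 to 103. Sumo2 was at 62.86 in wild-type replicate 4, with the others at 37.8 to 41.4. Mul1 was at 54.01 in wild-type replicate 4, with the others at 71.4 to 74.0. Topors was at 80.52 in Daxx-deleted replicate 1, with the others at 59.4 to 62.5. Zbtb16 was at 599.9 in wild-type replicate 3, with the others at 242 to 250.4.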

How the results depend on the processing

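None of the 8 genes, and no named list gene, was called under any alternative run. Over 158 alternative values of the 8 genes the lowest adjusted p (limma, edgeR or DESeq2) was 0.964, and 144 kept their direction. A changed filter, robust moderation or an adjusted p under 0.1 leaves a gene's fold change as it was, so those values could not turn. Only 1 of the 8 genes never turned. The count over all genes went from 0 to 1, Bglap3, with equal library totals, robust moderation, the Y-linked covariate and DESeq2, and ran from 0 to 1 when single libraries were left out, with 1 without Daxx-deleted replicate 2. With equal library totals the median over all genes was 0.11, and Pml (0.0617), Sumo3 (0.0152), Senp1 (0.0603), Senp6 (0.0531), Senp3 (0.0196) and Desi1 (0.0310) turned above 0. Leaving out single libraries gave log2 fold changes from -0.14 to 0.12 for Pml, -0.0311 to 0.44 for Sp100, -0.0144 to 0.32 for Sumo2, -0.17 to 0.0602 for Senp1, -0.23 to 0.0878 for Senp6 and -0.0306 to 0.17 for Hipk1. Sumo3 ran from -0.22 to -0.000338 in the same way. Pias1 stayed below 0 in all alternatives, at -0.40 to -0.17 with single libraries left out. With principal transcript length the levels per kilobase were 24.6 for Pml, 8.19 for Sp100, 44.9 for Sumo2, 43.2 for Sumo3, 9.998 for Pias1, 13.4 for Senp1, 31.8 for Senp6 and 43.8 for Hipk1, since that length is shorter. A minimum mean of 50 left 6 of the 8 genes, without Sp100 and Sumo2. No paired analysis was possible because the replicate numbers follow the order of the samples and the labels tie no library of one genotype to one of the other. Of the 8 genes Sp100 had the fewest reads, 15 to 36 per library, and of the named list genes Gbp2 had 5 to 32 and Rsad2 8 to 31.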
